A study of Mus musculus with 16 samples.

Results

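Calcium is exported from neurons by exchangers and ATP-driven pumps of the plasma membrane, and 8 mouse genes of these families are described here. They are Slc8a1, Slc8a2 and Slc8a3 for the sodium-calcium exchangers NCX1, NCX2 and NCX3, Slc24a2 for the potassium-dependent exchanger NCKX2, and Atp2b1, Atp2b2, Atp2b3 and Atp2b4 for the calcium pumps PMCA1, PMCA2, PMCA3 and PMCA4. They were found by gene name among the 36930 entries of the RNAseq table, and all 8 were among the 21183 entries with values high enough for testing. The family was chosen with the genotype values of these pups known, so that the genotype differences of its members are given as a description.

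RNAseq was done on brain cortices of 16 C57BL6 pups at P7, 8 per genotype. Avil-ChR2 pups carry a floxed ChR2/td-Tomato transgene and the Cre recombinase under the advillin promoter, a promoter known chiefly for its activity in peripheral sensory neurons, and the level of the transgene in the cortex was not analyzed here. ChR2-flfl pups are Cre-negative litter mates with the floxed transgene alone. Pups of both genotypes received 1 h of blue light on each day between P1 and P5, and the study asked what this early stimulation of nociceptive neurons leaves behind in the cortex. No group without light was analyzed here, and the litter of each pup was not used. Values are normalized read counts (CPM) as scaled by the authors, and 30549126 to 48711134 reads were counted per pup.

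The labels were checked before the results. The 8 ChR2-flfl pups had 1.07 ± 0.199 CPM (SD) of Avil and the 8 Avil-ChR2 pups 39.7 ± 2.89 CPM (SD), without overlap. Markers of cortical excitatory neurons were abundant, with 469 ± 42.9 CPM of the vesicular glutamate transporter Slc17a7 in ChR2-flfl and 507 ± 28.8 CPM in Avil-ChR2 (SD, n = 8 each), whereas the summed CPM of sensory ganglion markers (Scn10a, Trpv1 and others) lay between 0.248 and 0.941. Avil-ChR2 replicate 4 is labelled female, but it had 64.6 CPM of the Y-linked gene Eif2s3y, within the range of the male pups (57.0 to 83.3 CPM), and the study's own list of animals has it as male. Results on sex are therefore given with either source. Xist had a value in 2 of 16 pups, with 0.208 CPM in a ChR2-flfl and 571 CPM in an Avil-ChR2 pup. P2ry12, a microglial receptor, had a value in 0 of 16, so that a missing value in the table is not evidence that a gene was silent. Pup numbers form 2 runs, an earlier (26 to 33) and a later (35 to 42), and each run holds 4 ChR2-flfl and 4 Avil-ChR2 pups. Values within each run are given below.

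A neuron at rest keeps its cytosolic calcium far below that outside the cell. PMCA pumps use ATP and have a high affinity for calcium but turn over slowly, and they are activated by calmodulin. NCX exchangers use the sodium gradient, have a lower affinity and a higher capacity, and can run backward when sodium accumulates or the membrane is depolarized. NCKX exchangers also carry potassium outward, which keeps them in the direction of calcium export. NCX1 is widespread and is the exchanger of the heart, NCX2 is found mainly in brain, NCX3 in brain and skeletal muscle, and PMCA2 and PMCA3 are more restricted to neurons than PMCA1 and PMCA4.

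The genes lie on 8 different chromosomes (GRCm38, positions of the deposited table). Slc8a1 is on chr17:81373105-81738387, minus strand, and spans 365283 bp, the longest of the family. Atp2b2 on chr6:113743842-114042613, minus strand, spans 298772 bp, and Slc24a2 on chr4:86983124-87230554, minus strand, spans 247431 bp. Slc8a3 lies on chr12:81197915-81333728, minus strand, and Atp2b1 on chr10:98914359-99026143, plus strand. Atp2b4 lies on chr1:133702674-133801037, minus strand, and Atp2b3 on chrX:73503023-73573275, plus strand. Slc8a2 on chr7:16128313-16161063, plus strand, is the shortest with 32751 bp, close to the median of 25452 bp of the 15137 genes with a mean log2 CPM of at least 0.

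A pair of sequences upstream of the transcription start are shown, for the exchanger genes Slc8a1 and Slc8a3. They are from RefSeq (GRCm38.p6) and are written 5′ to 3′ on the strand of the gene. For Slc8a1 these are the 250 bases before the start (chr17:81738388-81738637, minus strand), with its 8 CpG dinucleotides in capitals.
Slc8a1: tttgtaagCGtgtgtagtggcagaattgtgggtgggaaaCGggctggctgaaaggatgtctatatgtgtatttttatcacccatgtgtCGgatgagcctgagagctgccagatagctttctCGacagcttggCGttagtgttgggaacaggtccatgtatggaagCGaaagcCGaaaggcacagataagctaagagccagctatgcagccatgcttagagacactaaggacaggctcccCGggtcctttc
For Slc8a3, 30 bases are shown (chr12:81333247-81333276, minus strand), in which capitals mark TGACGTC, the first letters of the cAMP response element TGACGTCA. The match starts 84 bases before the RefSeq start, and the deposited table places the 5′ end of the gene further upstream.
Slc8a3: cagctgatagggTGACGTCgagtttggagg
RefSeq windows were found for 7 of the 8 genes. Searched on both strands in the 250 bases before the start, TGACGTC was found in Slc8a3 only among these 7, and in 2.78% of all 32851 windows. The complete TGACGTCA was found in 1.55% of all windows and in none of the family. A match describes the letters and does not show that a factor binds there.

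Compared per kb of the longest annotated transcript, PMCA1 led the family. Over all 16 pups the mean level was 100.2 CPM per kb for Atp2b1, 61.8 for Atp2b2, 54.4 for Slc8a2, 27.7 for Slc8a1, 25.6 for Atp2b4, 17.2 for Atp2b3, 15.2 for Slc24a2 and 10.004 for Slc8a3. The ranges of neighbors in this order overlapped for Atp2b2 and Slc8a2, for Slc8a1 and Atp2b4 and for Atp2b3 and Slc24a2. Within single pups Atp2b2 stood above Slc8a2 in 16 of 16 pups and Atp2b3 above Slc24a2 in 15 of 16, but Slc8a1 above Atp2b4 in only 12 of 16. Which transcripts were used is not known from counts per gene. With the median length of the annotated transcripts in place of the longest, Atp2b1 was still first and Slc8a3 last, but Slc8a1 came second and Slc8a2 sixth. Depth was ample, since even Slc8a3, the lowest, had 1636 to 2634 reads per pup and its counting error was at most 2.47%.

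**Figure D1:**
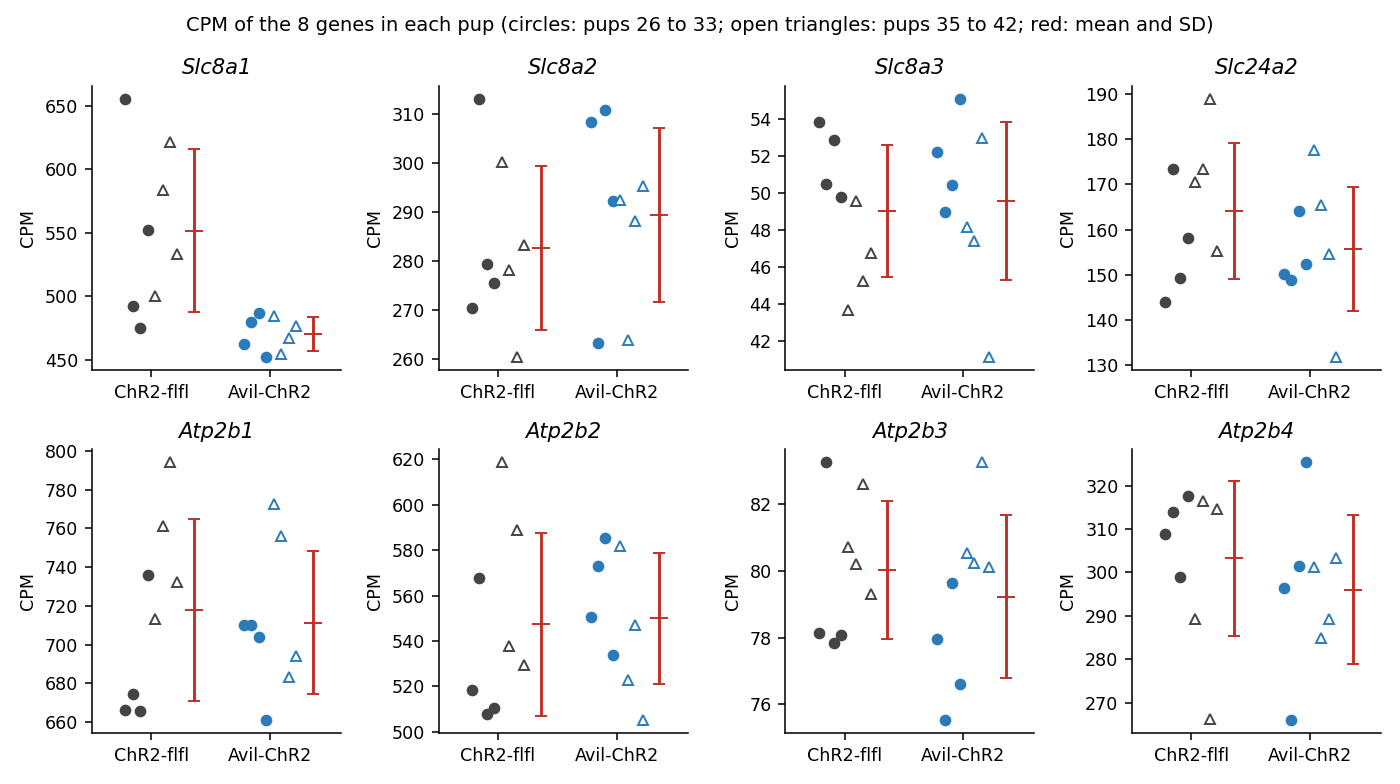
CPM of each of the 8 genes (y axes, which do not start at 0) in each pup by genotype, with filled circles for pups 26 to 33, open triangles for pups 35 to 42 and the mean and SD in red. Slc8a1 was spread from 475 to 656 CPM in ChR2-flfl and from 452 to 487 CPM in Avil-ChR2, whereas the genotypes overlapped broadly for the other 7 genes.

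Slc8a1, which encodes NCX1, showed the largest genotype difference of the family. In ChR2-flfl replicates 1 to 8 it had 656, 492, 475, 552, 500, 584, 621 and 533 CPM. In Avil-ChR2 replicates 1 to 8 it had 462, 480, 487, 452, 485, 455, 467 and 477 CPM. All 8 Avil-ChR2 pups lay below the ChR2-flfl mean, a pattern seen in 3.35% of all genes, and 7 of 8 ChR2-flfl pups lay above the highest Avil-ChR2 pup. Only ChR2-flfl replicate 3 fell within the range of the other genotype. The log2 difference was -0.22 (SE 0.054, 95% interval -0.33 to -0.11), which is 14.3% lower in Avil-ChR2. With a per-pup covariate for the slope of log2 CPM on the genomic span of genes, called the length slope here, it was -0.14. It was -0.20 among pups 26 to 33 and -0.24 among pups 35 to 42. In bulk cortex, fewer cells that express a gene and less RNA per cell cannot be told apart. Slc8a1 is one of the candidate genes that the study picked by P-value from these pups, so that its difference is not independent evidence of its direction.

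The spread of Slc8a1 differed as well. The coefficient of variation was 11.7% in ChR2-flfl and 2.84% in Avil-ChR2. On the log2 scale the SD was 0.17 and 0.041, and the median SD of the 15137 genes with a mean log2 CPM of at least 0 was 0.10 in ChR2-flfl and 0.089 in Avil-ChR2. NCX1 mRNA was thus more variable than the median gene among controls and less variable than the median gene among Avil-ChR2 pups. The highest pup, ChR2-flfl replicate 1, carried a part of the difference, which was -0.19 without it.

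Slc8a2, which encodes NCX2, had 260 CPM in the lowest, 279 in the median and 313 in the highest ChR2-flfl pup, and 263, 292 and 311 CPM in Avil-ChR2. The genotypes overlapped over nearly their whole range. The log2 difference was 0.034 (SE 0.040, 95% interval -0.050 to 0.12), and -0.033 with the length slope as a covariate. The ratio of Slc8a1 to Slc8a2 in CPM, which is not corrected for length and serves to compare pups only, averaged 1.97 ± 0.322 (SD) over the 8 ChR2-flfl pups and 1.63 ± 0.104 (SD) over the 8 Avil-ChR2 pups.

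Slc8a3, which encodes NCX3, had 43.7, 49.7 and 53.8 CPM in the lowest, median and highest ChR2-flfl pup and 41.1, 49.7 and 55.1 CPM in Avil-ChR2. The medians nearly coincided and the ranges overlapped. Its log2 difference was 0.014 (SE 0.053, 95% interval -0.098 to 0.13), and -0.015 with the length slope as a covariate. The summed CPM of the 3 NCX genes was 883 ± 54.1 (SD) over 8 ChR2-flfl pups and 809 ± 24.6 (SD) over 8 Avil-ChR2 pups, and Slc8a1 was the only one of them with a mean lower in Avil-ChR2.

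Slc24a2, which encodes the NCKX2 of neurons and cone photoreceptors, had 144, 164 and 189 CPM in the lowest, median and highest ChR2-flfl pup and 132, 154 and 178 CPM in Avil-ChR2. The ranges overlapped, with 1 Avil-ChR2 pup (replicate 8) below all others. The log2 difference was -0.076 (SE 0.057, 95% interval -0.20 to 0.043), and -0.033 with the length slope as a covariate. Without that covariate it was -0.019 among pups 26 to 33 and -0.13 among pups 35 to 42, and the intervals of both runs included 0.

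The PMCA pumps gave genotype differences close to 0. Atp2b1, the housekeeping pump, had 666, 723 and 794 CPM in the lowest, median and highest ChR2-flfl pup and 661, 707 and 773 CPM in Avil-ChR2. Atp2b2, the fast neuronal pump, had 508, 534 and 619 CPM in ChR2-flfl and 505, 549 and 585 CPM in Avil-ChR2. These ranges overlapped almost completely for both genes. Atp2b3, the X-linked pump, had 77.8, 79.8 and 83.3 CPM in ChR2-flfl and 75.5, 79.9 and 83.2 CPM in Avil-ChR2. Atp2b4 had 266, 311 and 318 CPM in ChR2-flfl and 266, 299 and 325 CPM in Avil-ChR2. The narrow range of Atp2b3 stood out, with SDs of 2.07 and 2.45 CPM. The log2 differences were -0.012 (SE 0.040) for Atp2b1, 0.0083 (SE 0.042) for Atp2b2, -0.014 (SE 0.025) for Atp2b3 and -0.035 (SE 0.040) for Atp2b4. All 4 intervals from limma included 0 and lay between -0.12 and 0.096. The sign differed between the runs for Atp2b2 (0.092 among pups 26 to 33 and -0.076 among pups 35 to 42), Atp2b1 (0.023 and -0.047) and Atp2b3 (-0.035 and 0.0057). The summed CPM of the 4 pumps was 1649 ± 62.9 (SD) over 8 ChR2-flfl pups and 1637 ± 49.2 (SD) over 8 Avil-ChR2 pups.

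**Figure D2:**
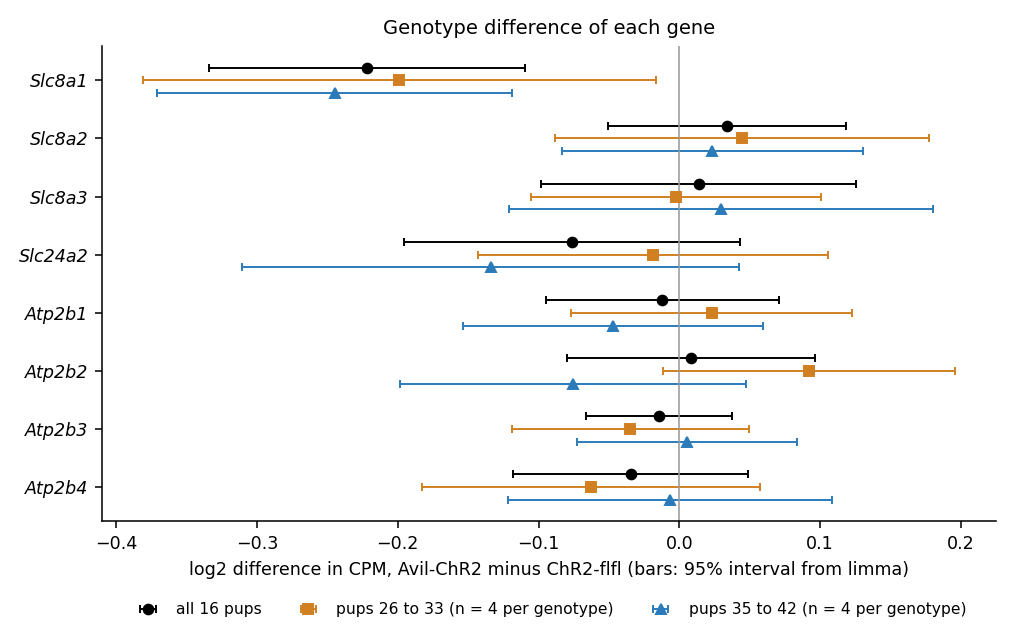
Log2 difference in CPM between Avil-ChR2 and ChR2-flfl (x axis) for the 8 genes (rows), over all 16 pups and within each run of pup numbers, with 95% intervals from limma. Slc8a1 lies at -0.22 with both runs on the same side of 0, and the intervals of the other 7 genes over all pups include 0.

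In the fit across all genes, 0 of the 8 genes had an adjusted p under 0.05 for genotype (limma, Benjamini-Hochberg), beside 0.00944% of all genes. At an unadjusted p under 0.05, 1 of 8 was lower (Slc8a1) and 0 were higher, beside 3.46% lower and 1.95% higher among all genes. Because the family was chosen on this contrast, nothing is read from these counts.

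The genes around these transporters were described by lists of calcium handling genes, 46 in all, which were all high enough for testing. With limma and Benjamini-Hochberg adjustment over all genes, 0 of 46 passed an adjusted p of 0.05 for genotype. At an unadjusted p under 0.05, 3 were lower and 1 was higher in Avil-ChR2, beside the 3.46% lower and 1.95% higher of all genes. Of the 46, 12 had a negative and 34 a positive difference (32 positive with the length slope as a covariate), beside 51.4% of all genes with a positive difference, with a median log2 difference of 0.026 beside 0.0020 for all genes. Positive differences were found for 8 of 8 genes of mitochondrial calcium transport, 6 of 7 of the sodium pump, 5 of 6 cytosolic calcium buffers, 4 of 5 pumps of the endoplasmic reticulum and Golgi, 2 of 3 calmodulin genes and 2 of 2 partner proteins of PMCA pumps. With the length slope as a covariate the count was 6 of 8 for mitochondrial transport, 5 of 7 for the sodium pump, 4 of 6 for the buffers, 5 of 5 for the pumps of the endoplasmic reticulum and Golgi, 2 of 3 for calmodulin and 1 of 2 for the PMCA partners, beside 49.6% of all genes with a positive difference in that fit. The other potassium-dependent exchangers (2 of 4, and 3 with the covariate) and the genes of calcium release and store-operated entry (5 of 11, and 6 with the covariate) were divided.

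Those 3 lower genes were the ryanodine receptors Ryr2 and Ryr3, which release calcium from the endoplasmic reticulum, and Slc24a4, which encodes a further potassium-dependent exchanger. Ryr2 had 160, 193 and 242 CPM in the lowest, median and highest ChR2-flfl pup and 155, 173 and 189 CPM in Avil-ChR2. Its log2 difference was -0.18 (SE 0.066, limma adjusted p = 0.825). Ryr3 had 46.3, 52.7 and 76.0 CPM in ChR2-flfl and 42.9, 46.2 and 52.2 CPM in Avil-ChR2, a log2 difference of -0.21 (SE 0.076, limma adjusted p = 0.825). With the length slope as a covariate, the differences were -0.089 for Ryr2 and -0.15 for Ryr3. Within the runs, Ryr3 had -0.30 and -0.11. For both receptors the genotypes overlapped, and all 8 Avil-ChR2 pups lay below the ChR2-flfl mean. Slc24a4 was low, with 4.22 ± 0.484 CPM in ChR2-flfl and 3.59 ± 0.599 CPM in Avil-ChR2 (SD, n = 8 each), and its log2 difference was -0.24 (SE 0.10, limma adjusted p = 0.859).

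Slc8b1, which encodes the sodium-calcium exchanger NCLX of mitochondria and is also among the genes that the study picked from these pups, was the gene with an unadjusted p under 0.05 in the upward direction. It had 2.95, 3.82 and 4.31 CPM in the lowest, median and highest ChR2-flfl pup and 3.99, 4.25 and 4.88 CPM in Avil-ChR2. All 8 Avil-ChR2 pups lay above the ChR2-flfl mean, but the ranges overlapped, and the share of all genes with this pattern was not counted. The log2 difference was 0.23 (SE 0.080, limma adjusted p = 0.825), or 0.15 with the length slope as a covariate. The median over the 8 genes of mitochondrial calcium transport was 0.040. Mcu, the pore of the uniporter, was at 74.8 ± 1.43 CPM in ChR2-flfl and 76.0 ± 2.24 CPM in Avil-ChR2 (SD, n = 8 each).

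None of the remaining calcium handling genes passed an adjusted or unadjusted p of 0.05. The largest of their differences, named after their values were seen, were those of genes with a low level. They were 0.37 for Slc24a1 (SE 0.22), 0.23 for Atp2c2 (SE 0.38), 0.21 for Pvalb (SE 0.32) and 0.19 for Mcub (listed as Ccdc109b, SE 0.13). The means of these genes were 0.160, 0.288, 0.143 and 3.25 CPM in ChR2-flfl. With the length slope as a covariate their differences were 0.29, 0.026, 0.033 and 0.066. Between the runs the sign differed for Atp2c2 (0.72 and -0.27) and Pvalb (-0.38 and 0.80). Nptn and Bsg, which encode the neuroplastin and basigin that assemble with PMCA pumps, had log2 differences of 0.019 (SE 0.036) and 0.060 (SE 0.037). Calm3, which encodes calmodulin, had 0.030 (SE 0.029). Atp1b1, a subunit of the sodium pump that maintains the gradient on which NCX runs, had 0.037 (SE 0.033). For the pump of the endoplasmic reticulum Atp2a2 the difference was -0.00060 (SE 0.027), and for the Golgi pump Atp2c1 it was 0.036 (SE 0.036). The IP3 receptor Itpr1 had -0.040 (SE 0.053), the exchanger Slc24a3 0.059 (SE 0.030) and the calcium sensors Ncald and Vsnl1 0.014 (SE 0.031) and 0.057 (SE 0.039). Slc24a5 and Letm1 had -0.066 (SE 0.10) and 0.014 (SE 0.022). The sign of 6 of these genes turned with the length slope as a covariate, in which fit Bsg was at -0.0034, Calm3 at -0.017, Letm1 at -0.0040, Atp2a2 at 0.015, Itpr1 at 0.019 and Slc24a5 at 0.018.

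Sex and pup numbers were not used to choose the family, and they were tested. With the sexes of the labels (9 females and 7 males), 0 of 8 genes passed an adjusted p of 0.05 (limma, genotype as a covariate), beside 0.0425% of all genes. At an unadjusted p under 0.05 it was 0 of 8 as well, beside 4.46% of all genes, and the smallest adjusted p of the family was 0.988. By the labels, the largest difference was that of Atp2b4, 0.064 higher in females on the log2 scale (SE 0.039, 95% interval -0.018 to 0.15), with 305 ± 17.2 CPM in 9 females and 293 ± 16.1 CPM in 7 males (SD). X-linked Atp2b3 had 79.1 ± 2.33 CPM in females and 80.3 ± 2.05 CPM in males (SD), a log2 difference of -0.021 (95% interval -0.075 to 0.033). With the sexes of the study's list of animals the difference of Atp2b4 was 0.027 (95% interval -0.058 to 0.11), and the largest was that of Slc8a1, -0.031 (95% interval -0.15 to 0.084). By that source 0 of 8 passed with or without adjustment, beside 0.0519% of all genes with an adjusted and 3.46% with an unadjusted p under 0.05.

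The genotype difference was not shown to depend on sex for any of the 8 genes. Beside 0% of all genes with an adjusted p under 0.05 for the interaction of genotype and sex and 4.31% at an unadjusted p under 0.05, the family had 0 of 8 at either limit with the sexes of the labels, and the smallest adjusted p was 0.993. With the sexes of the study's list of animals, Slc8a3 had an interaction of -0.24 (SE 0.097, limma adjusted p = 0.799) and Slc8a1 of 0.20 (SE 0.10, limma adjusted p = 0.816). At an unadjusted p under 0.05, Slc8a3 alone passed with these sexes, 1 of 8, beside 6.23% of all genes, and 0 of 8 passed the adjusted threshold, beside 0% of all genes.

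Between the runs of pup numbers, Slc8a3 and Atp2b1 gave the largest differences, with opposite signs. Slc8a3 had 51.7 ± 2.14 CPM (SD, n = 8; 48.9 to 55.1) in pups 26 to 33 and 46.9 ± 3.63 CPM (SD, n = 8; 41.1 to 53.0) in pups 35 to 42. In the later run 6 of 8 pups lay below the lowest pup of the earlier run. The log2 difference was -0.14 (SE 0.043, 95% interval -0.23 to -0.054, limma adjusted p = 0.173). Atp2b1 had 691 ± 27.6 CPM in the earlier and 738 ± 39.3 CPM in the later run (SD, n = 8 each), a log2 difference of 0.095 (SE 0.034, 95% interval 0.024 to 0.17, limma adjusted p = 0.241). Thus 0 of 8 genes passed an adjusted p of 0.05, beside 0.123% of all genes, and 2 of 8 had an unadjusted p under 0.05, beside 12.5% of all genes. The labels do not say what the runs stand for.

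Markers of the striatum, which lies beneath the cortex, were lower in the later run as well. All 5 genes of the striatum list (Drd1, Drd2, Adora2a, Gpr6 and Ppp1r1b) were lower in the later run, with a median log2 difference of -0.47, and their summed CPM was 39.3 to 59.0 in the earlier and 28.0 to 46.9 in the later run. The most abundant was Ppp1r1b, which encodes the dopamine signaling protein DARPP-32, with a log2 difference of -0.51 (limma adjusted p = 0.0942). Of the 6 genes of the oligodendrocyte lineage list, 5 were lower in the later run, with a median of -0.18. The summed CPM of that list was 260 to 317 in the earlier and 245 to 279 in the later run. Red blood cell genes were lower in the later run too, 4 of the 4 tested, with a median of -0.34 and a summed CPM of 257 to 465 in the earlier and 227 to 294 in the later run, and all 4 had an unadjusted p under 0.05, beside 12.5% of all genes. The hemoglobin gene Hba-a2 had -0.42 (limma adjusted p = 0.0617). With limma, 0 red blood cell genes passed an adjusted p of 0.05, beside 0.123% of all genes. Likewise 0 genes of the striatum and oligodendrocyte lineage lists passed an adjusted p of 0.05, and 4 of 5 and 3 of 6 had an unadjusted p under 0.05, beside the same 12.5%. Run differences were not confined to these lists. Of the cell types of the cortex, 2 of 5 excitatory neuron, 1 of 4 interneuron and 1 of 5 astrocyte genes had an unadjusted p under 0.05. The medians of those lists were 0.017, -0.032 and 0.0014. Of the excitatory neuron genes, Tbr1 had -0.23 and Camk2a 0.18 (limma adjusted p = 0.118 and 0.160). By genotype, the median log2 difference was 0.036 for the striatum and 0.0070 for the oligodendrocyte lineage list, and -0.13 and -0.11 with the length slope as a covariate.

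Slc8a3 varied with the striatum list from pup to pup. After removal of the genotype means, Pearson's r over the 16 pups was 0.78 with the mean log2 CPM of the striatum list and 0.84 without the 2 pups farthest from its median. Within the runs it was 0.60 and 0.79 (n = 8 each). With the oligodendrocyte lineage list r was 0.72, and 0.39 and 0.61 within the runs. With Ppp1r1b alone it was 0.87. With the red blood cell list r was 0.37 over all pups, and -0.21 and -0.14 within the runs. These values share the libraries and their scaling and are given as a description. The part of neighboring tissue or blood in the spread of Slc8a3 was not tested.

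**Figure D3:**
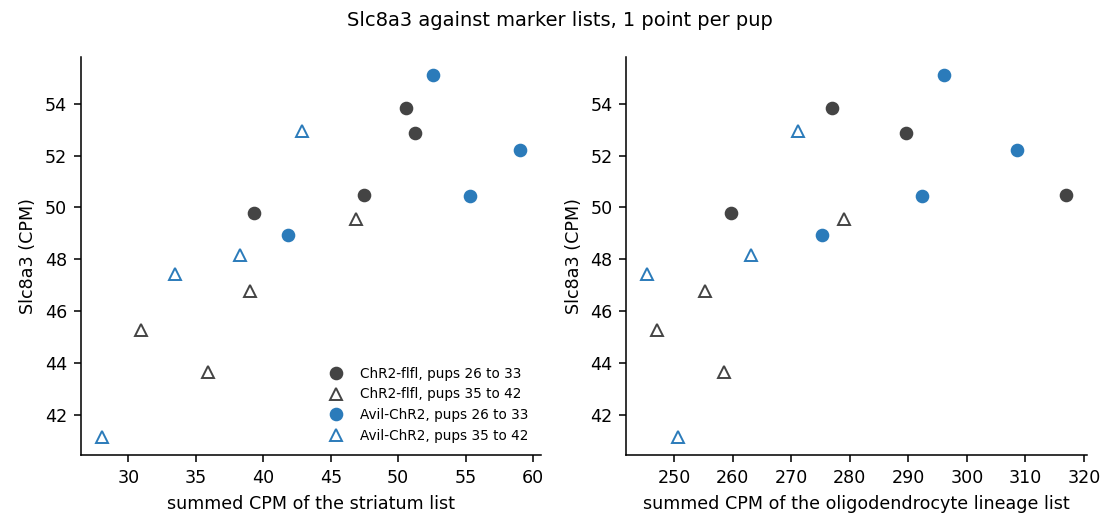
Slc8a3 (CPM, y axis) against the summed CPM of the striatum list (left) and of the oligodendrocyte lineage list (right), 1 point per pup, with colors for genotype, filled circles for pups 26 to 33 and open triangles for pups 35 to 42. Pups with more striatal marker RNA had more Slc8a3 in both runs and both genotypes.

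Another axis separated Slc8a1 and Atp2b1 from Slc8a2. In each pup the log2 CPM of the 15137 genes with a mean log2 CPM of at least 0 was fitted by the log10 of their genomic span, which gives a slope that is high in libraries with relatively more reads from long genes. The slope averaged 0.919 ± 0.0344 (SD; 0.868 to 0.973) over the 8 ChR2-flfl pups and 0.889 ± 0.0243 (SD; 0.864 to 0.934) over the 8 Avil-ChR2 pups, in log2 units per 10 times of span. These ranges overlapped. After removal of the genotype means, r with the slope was 0.66 for Slc8a1 (0.74 without the 2 pups farthest from the median slope), 0.74 for Atp2b1 (0.58) and -0.75 for Slc8a2 (-0.62). The other 5 genes had r between -0.31 and 0.33. The members are among the genes fitted, but they are 8 of 15137.

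For Atp2b1 and Slc8a2 the relation had the same sign in both genotypes, with r of 0.71 in ChR2-flfl and 0.79 in Avil-ChR2 for Atp2b1, and -0.90 and -0.60 for Slc8a2 (n = 8 each). Slc8a1 followed the slope in ChR2-flfl (r = 0.85) but not in Avil-ChR2 (r = -0.079), where its level was nearly constant. Within the runs, with genotype means removed, r was 0.78 and 0.69 for Slc8a1, 0.41 and 0.91 for Atp2b1 and -0.69 and -0.89 for Slc8a2. With the slope as a covariate in limma the genotype difference of Slc8a1 was -0.14 (95% interval -0.24 to -0.040) in place of -0.22, that of Slc8a2 was -0.033 and that of Atp2b1 0.052. That fit takes the same slope coefficient for both genotypes, which the unlike relations of Slc8a1 in the genotypes do not bear out for this gene. What sets the slope was not tested.

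**Figure D4:**
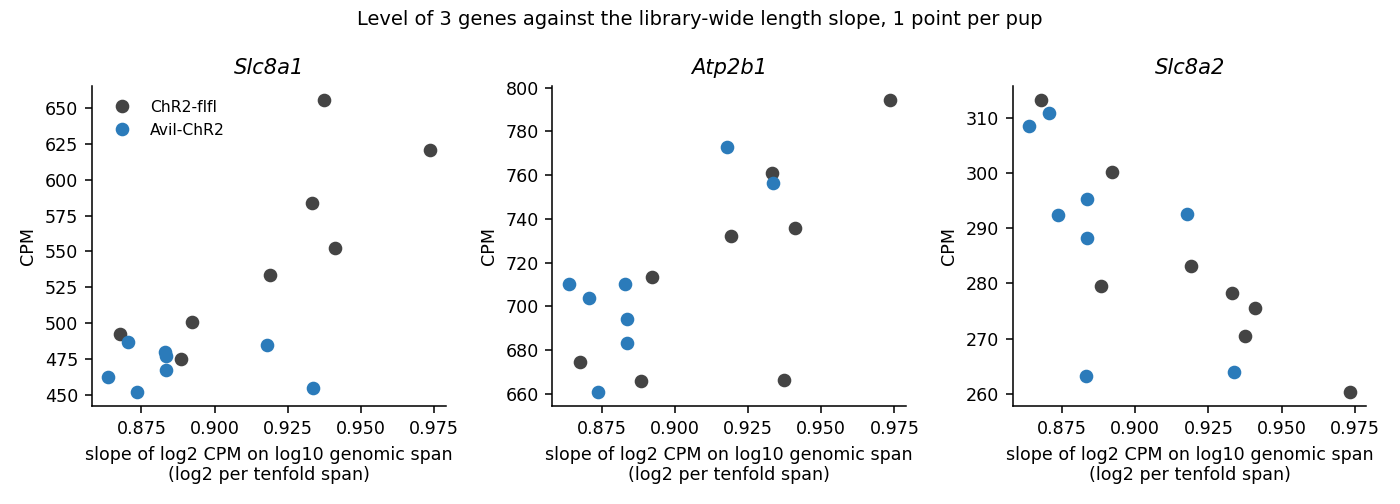
CPM of Slc8a1, Atp2b1 and Slc8a2 (y axes, which do not start at 0) against the slope of log2 CPM on log10 genomic span (x axis), 1 point per pup, gray for ChR2-flfl and blue for Avil-ChR2. In ChR2-flfl, pups with a higher slope had more Slc8a1 and Atp2b1 and less Slc8a2, and the Avil-ChR2 pups of Slc8a1 stayed between 452 and 487 CPM at all slopes.

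Malat1, a long non-coding RNA that stays in the nucleus, had 202, 259 and 452 CPM in the lowest, median and highest ChR2-flfl pup and 179, 195 and 265 CPM in Avil-ChR2. Its log2 difference was -0.53 (SE 0.14, limma adjusted p = 0.725). It was -0.33 with the slope as a covariate, and -0.72 and -0.33 within the runs. Slc8a1 varied with it (r = 0.70 after removal of the genotype means, 0.43 without the 2 farthest pups), and with Ryr2 (0.82 and 0.70) and Ryr3 (0.76 and 0.46). Its r with the microglia list was -0.75, but -0.39 without the 2 farthest pups, -0.87 in ChR2-flfl and -0.00015 in Avil-ChR2, and -0.92 in the earlier and -0.33 in the later run. The summed CPM of that list, in which Csf1r was the most abundant gene, was 48.2 to 77.5 in ChR2-flfl and 59.0 to 73.5 in Avil-ChR2. With the astrocyte list r was -0.56 (-0.59 without the 2 farthest pups), with -0.58 in ChR2-flfl, -0.52 in Avil-ChR2, -0.84 in the earlier and -0.032 in the later run. With the endothelium and pericyte list r was -0.44 (-0.65 without the 2 farthest pups), with -0.82 in ChR2-flfl, 0.044 in Avil-ChR2, -0.55 in the earlier and -0.22 in the later run. Over all pups, r of Slc8a1 was negative with each of the other marker lists too. It was -0.48 for interneurons, -0.40 for red blood cells and -0.37 for excitatory neurons, and weakest for the thalamus (-0.11). The part of these cell types or of nuclear RNA in the spread of Slc8a1 was not tested.

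Among the 28 pairs of the 8 genes, few varied together. Slc24a2 did so with Atp2b2 (r = 0.69), with Atp2b1 (0.66) and with Atp2b3 (0.52). The first of these was also present within the runs (0.73 and 0.65), whereas the second was weak in the earlier run (0.17) and strong in the later run (0.77). Slc8a2 and Atp2b4 had an r of 0.51, Slc8a1 and Slc8a2 of -0.44, Atp2b2 and Atp2b4 of -0.46 and Slc8a3 and Atp2b1 of -0.49. Of the cell type lists, excitatory neurons varied with Atp2b4 (r = 0.75, within the runs 0.66 and 0.88), and interneurons with Slc8a2 (0.70, within the runs 0.79 and 0.66). Atp2b1 had a negative r with the oligodendrocyte lineage list (-0.64, within the runs -0.61 and -0.34), the red blood cell list (-0.62, within the runs -0.073 and -0.79) and the striatum list (-0.60, within the runs -0.57 and -0.23). It also had a negative r with the sensory ganglion list (-0.59) and the interneuron list (-0.55, and -0.35 without the 2 farthest pups). The summed CPM of the sensory ganglion list was at most 0.941 in any pup, so that few reads stand behind its r.

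**Figure D5:**
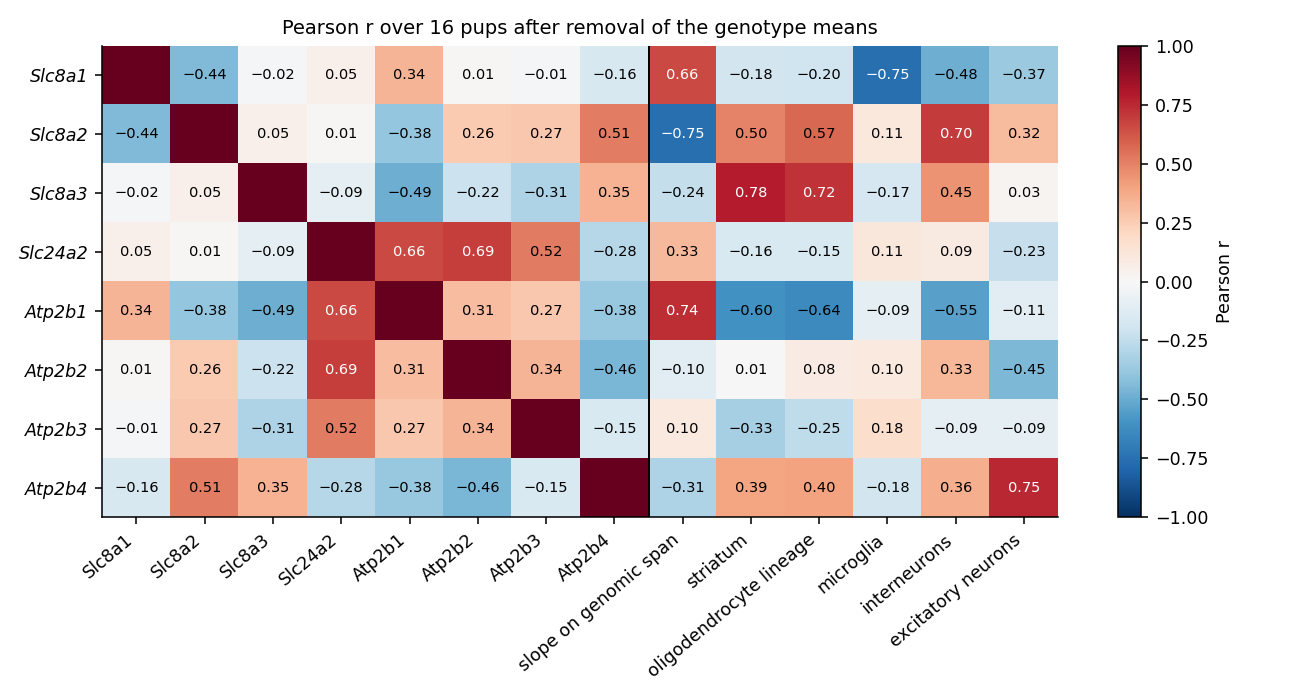
Pearson's r over 16 pups after removal of the genotype means, between the 8 genes (left of the line) and of each gene with the length slope and 5 marker lists (right of the line), red for positive and blue for negative values. The blocks to see are Slc24a2 with Atp2b1 and Atp2b2, the opposite signs of Slc8a1 and Slc8a2 with the slope (0.66 and -0.75), and Slc8a3 with the striatum and oligodendrocyte lineage lists (0.78 and 0.72).

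Ranked by r over the 16 pups with genotype means removed among 15129 genes with a mean log2 CPM of at least 0, the genes most like Slc8a1 were Dync2h1 (0.97), Mga (0.97) and Akap9 (0.96), which span 248729, 98484 and 152788 bp. Most like Atp2b1 were Osbpl8 (0.96), Usp33 (0.93) and Wdr35 (0.93), which span 132493, 47140 and 54857 bp. For Slc8a2 they were Gdap1l1 (0.92), Cspg5 (0.89) and Clstn1 (0.89), which span 16906, 18794 and 62461 bp. The genes named for the long Slc8a1 were longer than those named for the short Slc8a2, but span did not order the neighbors of every member. Slc8a3 was closest to Nptx1 (0.91), Chrna4 (0.90) and Figf (0.89), and Slc24a2 to Ppm1l (0.93), Dmgdh (0.92) and Drp2 (0.89). The neighbors of Atp2b2 were Sema7a (0.88), Boc (0.87) and Crhr1 (0.86). They span 22731, 73826 and 43521 bp, although Atp2b2 itself spans 298772 bp. Those of Atp2b4 were Slc7a3 (0.90), Dsc2 (0.89) and AW551984 (0.88). Atp2b3 had no close match, with 0.78 for Fam124b, Myrfl and LOC102634502. These genes were selected from many for their likeness, and nothing is said of a shared function.

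Entries that overlap the 8 genes took few reads. The antisense entry Gm34131 at the 5′ end of Slc8a1 had a mean of 0.453 CPM, and Gm15083 antisense to Atp2b2 had 0.102 CPM. Antisense entries in the middle of Slc8a1 and in Slc8a3, and the microRNA gene Mir6903 in Atp2b4, were listed without a value above 0.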

How the data were processed

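Cortical RNA of 16 pups was sequenced as stranded mRNA libraries. Reads shorter than 50 bp were dropped by the authors, who used SeqMan NGen 17 for alignment to mm10 (GRCm38), ArrayStar 17 for counts per gene and TMM factors of edgeR for scaling. The deposited values are CPM on a linear scale, 1 column per pup, with decimal commas and with some empty cells. In sums and means of CPM, empty cells were counted as no reads. Columns of the authors' own comparisons were not used, and 0 value columns were left out. The treatment of reads in overlapping genes is not given in the sources used here. The CPM of 1 read was found for each pup, and division by it gave whole reads (tolerance 0.05) for 100% of values not above 20000 reads. There were no molecular identifiers, so that depth limits counting error only.

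Genotype, replicate and pup numbers were taken from the labels. Values were log2 transformed with a pseudocount of 0, and missing values or values below -5 were set to -5 (4432 of 338928). Genes with at least 12 of 16 pups above -5 were kept. Genotype, sex, their interaction and the run of pup numbers were tested with limma 3.58.1 in R 4.3.3 (lmFit, eBayes with an intensity trend), two-sided, with Benjamini-Hochberg adjustment over 21183 genes. The p-values measure the spread between single pups. The scripts were tested on simulated data. Lengths were those of GENCODE M21 on GRCm38, and promoters those of RefSeq. The family and all lists were chosen with earlier results of these data known. The genes named are the 8 members, the 2 most abundant genes of each calcium handling list, those with an unadjusted limma p under 0.05 for genotype, the most abundant and defining genes of the marker lists that are described, label checks, and for each member the 3 genes with the highest r. Some genes that this rule names are not reported here. Figures were drawn with matplotlib 3.10.9 in Python 3.11.15.

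The alternatives were other filters, log2(CPM + 1), missing values drawn from a normal distribution (shift 1.8 SD, width 0.3 SD), quantile normalization, median centring, sex, run, replicate number or length slope in the model, each run alone, each pup left out, and the median transcript length. No result on protein sequences is given.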

Additional observations from a re-analysis of the deposited data

How the results depend on the processing

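None of the 8 genes had an adjusted p under 0.05 for genotype, sex, their interaction or the run in any alternative that was run. The genotype difference of Slc8a1 lay between -0.25 and -0.19 with single pups left out (least without ChR2-flfl replicate 1), and was -0.14 with the length slope as a covariate, the only alternative that moved it by over 1.5 times. The differences near 0 changed sign in places. With single pups left out they lay between -0.0098 and 0.051 for Slc8a3, -0.029 and 0.0091 for Atp2b1 and -0.0067 and 0.034 for Atp2b2, while those of Slc8a2 (0.017 to 0.055), Slc24a2 (-0.10 to -0.043), Atp2b3 (-0.025 to -0.0047) and Atp2b4 (-0.061 to -0.013) kept their sign. With the slope as a covariate Slc8a2 was at -0.033, Slc8a3 at -0.015, Atp2b1 at 0.052 and Atp2b2 at -0.0015. In that fit Slc24a2 was at -0.033, Atp2b3 at -0.010 and Atp2b4 at -0.062.

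Across all genes, 2 passed for genotype, 3 with the run as a covariate, and 1 with the length slope as a covariate, among pups 26 to 33 alone and among pups 35 to 42 alone. Leaving out single pups gave 1 to 2. For sex, 9 genes passed, and 6 to 11 with single pups left out. For the run, 26 genes passed, 16 with sex as a further covariate, and 7 (without Avil-ChR2 replicate 1) to 123 (without ChR2-flfl replicate 4) with single pups left out. The cause was not tested.

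The replicate numbers are serial numbers of different animals, and 1 of 8 numbers had its pups correlate best with each other, so that the numbers do not pair the pups. With the replicate number as a block, 1 gene passed for genotype and the estimates of the 8 genes were the same. The log2 difference of Slc8a1 was -0.22 in that fit.

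Per kb of the median transcript length, the levels were 489 CPM for Atp2b1, 168 for Slc8a1, 107 for Atp2b2, 75.8 for Atp2b4, 73.7 for Slc24a2, 60.6 for Slc8a2, 17.8 for Atp2b3 and 14.4 for Slc8a3. The change of order comes from short annotated transcripts in the length taken. The edgeR test on recovered reads was not run, so that no count model stands beside limma here. Counting error was at most 2.47% for the 8 genes and is larger for genes of a few CPM or less, such as Slc8b1, Drd2 and Scn10a.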

Other observations

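The other cell type lists were compared by genotype. With limma, 0 genes of any of them passed an adjusted p of 0.05. The median log2 difference was 0.057 for 4 microglial genes (4 higher in Avil-ChR2, but 1 with the length slope as a covariate), 0.047 for 5 astrocyte genes (4 higher, and 4 with the covariate) and 0.039 for 4 interneuron genes (3 higher, but 2 with the covariate), beside 51.4% of all genes that were higher (49.6% with the covariate). The 4 red blood cell genes tested were lower (-0.11, and -0.28 with the covariate), and their summed CPM was 227 to 465 in ChR2-flfl and 237 to 357 in Avil-ChR2. Among excitatory neuron genes the median was -0.00096 (2 of 5 higher), but 0.040 with the covariate (4 of 5 higher), with 0.11 for Slc17a7 (SE 0.049, unadjusted p under 0.05, limma adjusted p = 0.884, higher than the mean of controls in 7 of 8 Avil-ChR2 pups, 0.040 with the length slope as a covariate) and 0.096 for Camk2a (SE 0.067, limma adjusted p = 0.945). Endothelium and pericyte genes (-0.013, 1 of 5 higher, and -0.014 and 2 of 5 with the covariate) and thalamus genes (0.00054, 2 of 4 higher, and 0.044 and 3 of 4 with the covariate) had medians near 0. Choroid plexus (0.33, and 0.32 with the covariate) and sensory ganglion genes (0.40, and 0.066 with the covariate) had larger medians over 3 genes each. Their summed CPM, however, was at most 3.25 and 0.941 in any pup. The choroid plexus gene Ttr had 1.33 (SE 0.63, unadjusted p under 0.05, limma adjusted p = 0.911), and 0.70 with the covariate. Its means were 0.118 CPM in ChR2-flfl and 0.319 CPM in Avil-ChR2.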
